A study of Mus musculus with 24 samples.

Results

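The genes described here are the CD3 chains and other genes of T cell identity, 10 genes chosen by name: Cd3d, Cd3e, Cd3g, Cd247, Lck, Cd4, Cd8a, Cd8b1, Lef1 and Tcf7. All 10 were found among the 33967 gene names listed in each of 5 tables of surface RNA, and all 10 among the 55335 genes listed for total RNA of PBMCs, the mononuclear cells of peripheral blood. Surface RNA was measured with AMOUR in 15 libraries, 3 each of T cells, B cells and natural killer (NK) cells from spleen and of monocytes and HSPCs, the stem and progenitor cells of blood, from bone marrow. In AMOUR, intact fixed cells are held on Concanavalin A beads, an oligo carrying a T7 promoter and a random end is annealed to RNA on the outer membrane, and T7 RNA polymerase copies that RNA in place. The mice were C57BL/6, and the genotype label of all 15 surface libraries is WT. T cells were isolated with a kit for CD8 T cells, although the label reads only T cell, and HSPCs by depletion of lineage cells. Total RNA was measured in 9 further libraries of blood PBMCs of genotype wild type, 3 each under the treatment labels ct, WT and Y, which the labels do not explain. The ages of the mice are not given in the sources used here.

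The T cell receptor recognizes antigen but cannot signal by itself. CD3 delta, epsilon and gamma (Cd3d, Cd3e, Cd3g) and the zeta chain (Cd247) carry the signalling motifs into the cell, where the kinase Lck, brought in by the co-receptors CD4 or CD8, phosphorylates them. Lef1 and Tcf7 encode the related transcription factors LEF1 and TCF1, which guide T cell development, and NK cells are known to use the zeta chain, LCK and TCF1 without assembling a T cell receptor.

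Cd3g (chr9:44969572-44980431, minus strand), Cd3d (chr9:44981786-44987339, plus strand) and Cd3e (chr9:44998740-45009627, minus strand) lie within 40056 bases of one another (GRCm38, GENCODE M21), and the start sites of Cd3g and Cd3d are 1355 bases apart on opposite strands. Cd8b1 (chr6:71322788-71337494) and Cd8a (chr6:71373427-71379173) are neighbours on the plus strand, 35932 bases apart. The others stand alone: Cd247 at chr1:165788681-165877277 (plus), Lck at chr4:129548344-129573641 (minus), Cd4 at chr6:124864692-124888221 (minus), Lef1 at chr3:131110471-131224356 (plus) and Tcf7 at chr11:52252371-52283014 (minus).

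The sequences just before the start sites of the 3 clustered CD3 genes are shown because all 3 genes had their highest mean in the same cell type. Each is the stretch from 250 to 51 bases before a start site in the RefSeq table for GRCm38.p6, read 5′ to 3′ on the strand of the gene. Capitals mark matches on either strand to the motifs named after the sequences. The windows are chr9:44981536-44981735 (plus) for Cd3d, chr9:45009662-45009861 (minus) for Cd3e and chr9:44980482-44980681 (minus) for Cd3g.
Cd3d: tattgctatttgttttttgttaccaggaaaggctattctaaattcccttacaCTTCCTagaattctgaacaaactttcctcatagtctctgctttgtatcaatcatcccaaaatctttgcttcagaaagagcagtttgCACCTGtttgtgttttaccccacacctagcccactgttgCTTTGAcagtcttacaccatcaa
Cd3e: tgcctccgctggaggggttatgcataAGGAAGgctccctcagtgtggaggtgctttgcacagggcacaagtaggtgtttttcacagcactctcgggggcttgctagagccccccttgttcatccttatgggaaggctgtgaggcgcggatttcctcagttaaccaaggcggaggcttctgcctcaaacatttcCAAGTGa
Cd3g: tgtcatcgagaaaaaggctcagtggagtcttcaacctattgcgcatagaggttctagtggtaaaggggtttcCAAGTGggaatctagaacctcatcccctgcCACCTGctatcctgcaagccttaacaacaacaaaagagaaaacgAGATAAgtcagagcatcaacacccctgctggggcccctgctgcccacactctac
An E-box, searched as CANNTG, was present in all 3 of these windows, as in 59.0% of the 32851 windows in the table. The motif of ETS factors, searched as AGGAAG, was found before Cd3d and Cd3e and in 23.9% of all windows. The motif of GATA factors was searched as AGATAA and was found before Cd3g alone of the 3, and in 8.42% of all windows. The motif of TCF/LEF factors, searched as CTTTGA, was found before Cd3d alone of the 3, where it begins 73 bases before the start, and in 11.8% of all windows. A RUNX motif, searched as TGTGGT, had no match in these 3 windows and was found in 11.6% of all windows. There, 13 windows matched 8 members, Cd4 and Cd8b1 not being among them. Of these 13, an E-box was found in 9, an ETS motif in 5, a TCF/LEF motif in 2, and a GATA and a RUNX motif in 1 each. These matches are a description of the sequence only.

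The surface libraries differed in their share of protein-coding RNA, which was lowest in T cell replicate 1. Protein-coding transcripts took 6448, 15175 and 12038 TPM (a transcript's share of its library, corrected for length) in T cell replicates 1, 2 and 3, between 11415 and 29593 TPM in the 9 libraries of B cells, NK cells and HSPCs, and between 169182 and 181474 TPM in monocytes, which were sequenced on another platform. Values are therefore given both as TPM of the whole library and as percent of the protein-coding TPM. This percent sets the TPM of all transcripts of a gene, also those not protein-coding, against the protein-coding TPM of the library. B cell markers, 13 genes such as those of the B cell receptor, summed to 19.4, 37.5 and 129 TPM in T cells against 602 to 874 TPM in B cells, and 13 NK cell markers summed to 14.2, 39.0 and 30.6 TPM in T cells against 247 to 626 TPM in NK cells. The NK cell libraries held 106, 237 and 269 TPM of the B cell markers (0.711% to 0.950% of the protein-coding TPM, against 3.01% to 3.13% in B cells and 0.247% to 1.07% in T cells), and 24.6 to 34.5 TPM of 11 neutrophil markers, against 0.241 to 0.522 TPM in T cells and 0.147 to 0.497 TPM in B cells. The 9 PBMC libraries held between 4686426 and 9055797 expected counts, of which between 50.5% and 57.0% fell on 1 ribosomal RNA gene. TPM keeps no depth, so the depth of the surface libraries is unknown.

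**Figure D1:**
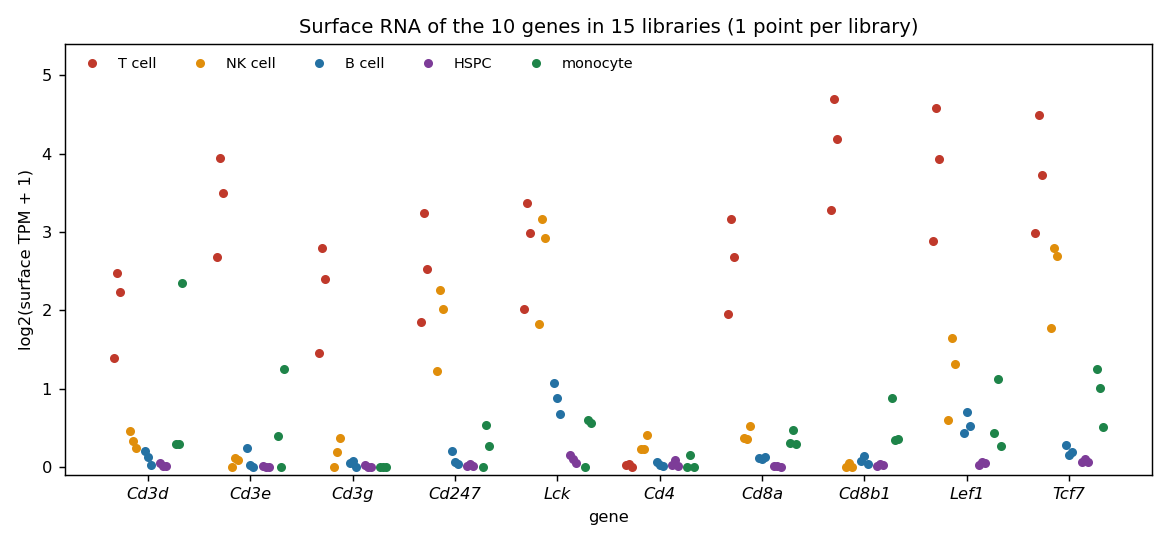
Surface RNA of the 10 genes as log2(TPM + 1), 1 point per library and 3 libraries per cell type, with colours for the cell types. T cell points stand above all other libraries for Cd3e, Cd3g, Cd8a, Cd8b1, Lef1 and Tcf7, NK cell points overlap them for Lck and Cd247, and the monocyte point of Cd3d at T cell height is replicate 3 with 4.07 TPM.

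The label of the T cell libraries was checked against the same genes. All members but Cd4 were above 1 TPM in all 3 T cell libraries, and Cd4 lay at 0.017 and 0.027 TPM in replicates 1 and 2 and was listed at 0 in replicate 3. The libraries labelled T cell thus held the CD8 genes and nearly no Cd4, and the kit used is one for CD8 T cells. The 10 genes together took between 39.3 and 120 TPM in T cells, 7.65 to 20.8 TPM in NK cells, 1.33 to 2.38 TPM in B cells, 0.168 to 0.321 TPM in HSPCs and 3.34 to 7.26 TPM in monocytes. No member reached 50 TPM in any library, the level at which the study counts a transcript as a surface hit. In bulk samples such as these, fewer cells of a type and less RNA per cell cannot be told apart.

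Among the CD3 chains, Cd3e, which encodes the epsilon chain, was the most abundant in T cells at 5.43, 14.4 and 10.3 TPM in replicates 1 to 3 (10.1 ± 4.51, SD, n = 3). It lay between 0 and 0.0813 TPM in NK cells and between 0 and 0.178 TPM in B cells. The T cell libraries were thus all far above the lymphocytes of the other kinds. Cd3g gave 1.75, 5.94 and 4.26 TPM in T cells and at most 0.294 TPM in any other library. Cd3d gave 1.61, 4.54 and 3.71 TPM in T cells, up to 0.370 TPM in NK cells and up to 0.156 TPM in B cells. Both the delta and the gamma chain were separated from B cells and NK cells without overlap, and Cd3d alone of the 3 had a library of another cell type, monocyte replicate 3, at the T cell level.

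The zeta chain differed from the other CD3 chains in its spread over cell types. Cd247 stood at 2.62, 8.43 and 4.78 TPM in T cells and at 1.33, 3.77 and 3.05 TPM in NK cells. The ranges overlapped, whereas B cells were at 0.155 TPM or below. Lck, the kinase that phosphorylates the CD3 chains, was also shared: 3.04, 9.37 and 6.94 TPM in T cells and 2.53, 8.01 and 6.57 TPM in NK cells, with overlapping ranges. In B cells Lck was lower but not near 0, at 1.10, 0.839 and 0.594 TPM.

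Of the co-receptors, Cd8b1, the CD8 beta chain, was the member with the highest mean in T cells: 8.68, 24.9 and 17.1 TPM, against at most 0.105 TPM in B cells and NK cells. Cd8a, the alpha chain, gave 2.87, 7.98 and 5.43 TPM in T cells and 0.292, 0.276 and 0.440 TPM in NK cells. The beta chain thus exceeded the alpha chain in every T cell library, by 3.10 ± 0.0685 times (SD, n = 3). Cd4, the co-receptor of helper T cells, was higher in NK cells (0.172, 0.170 and 0.323 TPM) than in T cells, without overlap, though all these values are far below 1 TPM.

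Both transcription factors were abundant in T cells. Lef1 gave 6.35, 23.0 and 14.3 TPM there and 0.522, 2.13 and 1.49 TPM in NK cells, and Tcf7 gave 6.96, 21.6 and 12.3 TPM and 2.43, 5.96 and 5.44 TPM. No T cell library overlapped an NK cell library for either gene, but for Tcf7 the T cell replicate 1 was close to NK cell replicate 2. The factors parted in B cells, where Lef1 (0.353 to 0.631 TPM) lay above Tcf7 (0.110 to 0.212 TPM) without overlap. In HSPCs no member exceeded 0.107 TPM. Monocytes held between 0.421 and 1.37 TPM of Tcf7 and between 0.207 and 1.18 TPM of Lef1.

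By mean TPM in T cells the order was Cd8b1, Lef1, Tcf7, Cd3e, Lck, Cd8a, Cd247, Cd3g, Cd3d and Cd4, and only the last step, from Cd3d to Cd4, lay beyond the spread of the 3 libraries. The spread was shared by the genes. For all 9 members above 1 TPM, replicate 1 was the lowest and replicate 2 the highest, and the highest was between 2.66 and 3.62 times the lowest. As percent of the protein-coding TPM the highest replicate was only between 1.13 and 1.54 times the lowest, and further steps of the order lay beyond the spread, from Tcf7 down to Cd3e, from Cd3e to Lck and from Cd247 to Cd3g. On this scale Cd8b1 stood at 0.147% ± 0.0151 (SD, n = 3), Lef1 at 0.123% ± 0.0268, Tcf7 at 0.117% ± 0.0217, Cd3e at 0.0884% ± 0.00592 and Cd3d at 0.0286% ± 0.00310. These values count all transcripts of a gene. Protein-coding transcripts held 47.9% of the T cell TPM of Lef1 and 76.0% of that of Cd3e, so the order need not hold for them alone. In NK cells the order by TPM was Lck, Tcf7, Cd247 and Lef1, with overlap between neighbours, and the other 6 members were below Lef1 without overlap and all below 0.5 TPM, with overlap among them.

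**Figure D2:**
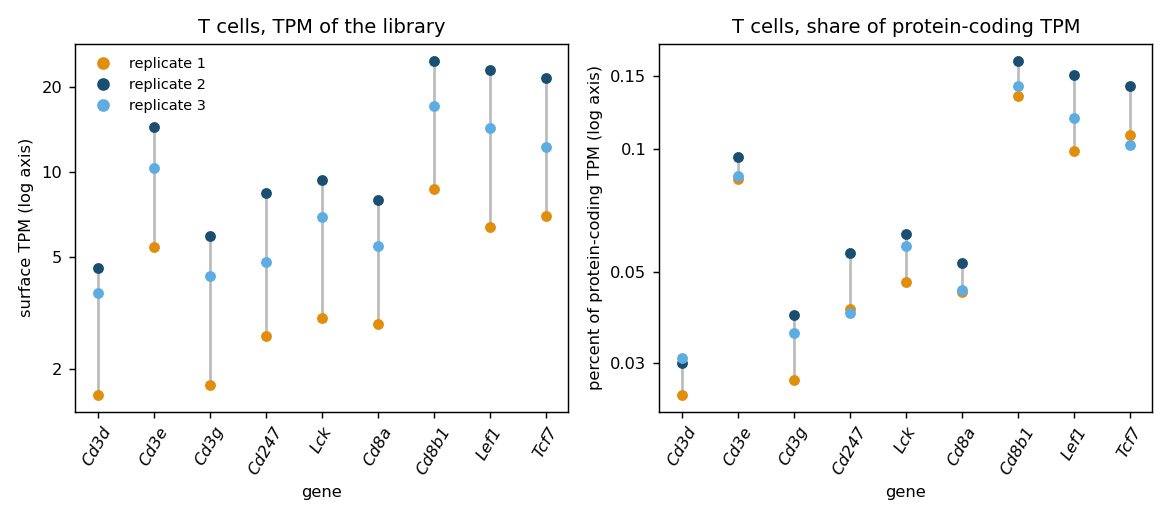
The 9 genes above 1 TPM in T cells, as TPM of the library (left) and as percent of the protein-coding TPM (right), both on log axes, 1 point per replicate and a line from the lowest to the highest. On the left replicate 1 is lowest for every gene, by up to 3.62 times, and on the right the replicates lie within 1.54 times.

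The first comparison asked how far the surface RNA of T cells stood apart from that of B cells, which came from the same organ and platform. With limma on log2(TPM + 1), and a call at a Benjamini-Hochberg adjusted p below 0.05 over the 12930 genes above 1 TPM in at least 3 libraries, 4.27% of genes were called higher in T cells and 29.4% lower. Leaving out 1 library gave 380 to 496 genes higher in place of 552, and 2177 to 4015 lower in place of 3802. Cd3d, Cd3e, Cd3g, Cd8a and Cd8b1 exceeded 1 TPM in at most 1 library outside T cells. They entered the test through the T cell libraries, so that they had to differ. Cd247, Lck, Lef1 and Tcf7 would have entered without T cells, and all 4 were called higher than in B cells. Cd4 did not enter. The log2 fold change was 2.44 for Cd247 (SE 0.301, adjusted p = 3.72e-05), 1.92 for Lck (SE 0.352, adjusted p = 0.00105), 3.25 for Lef1 (SE 0.363, adjusted p = 1.51e-05) and 3.53 for Tcf7 (SE 0.334, adjusted p = 2.88e-06). Among the members that had to differ it ranged from 1.91 for Cd3d to 3.96 for Cd8b1. As percent of the protein-coding TPM, where 21.2% of genes were called higher and 15.7% lower, the calls of Cd247, Lck, Lef1 and Tcf7 were the same. These fold changes are of log2(TPM + 1) and understate the change of scarce genes. With a pseudocount of 0.1 TPM the differences from B cells were 4.84 for Cd247, 2.69 for Lck, 4.52 for Lef1 and 5.63 for Tcf7. Of 13 NK cell markers, 4 were higher in T cells than in B cells and 1 lower on log2(TPM + 1). As percent of the protein-coding TPM 5 of them were higher and 1 lower. Of 7 HSPC markers 0 were called on the first scale and 3 were higher on the second. Their part in the values of the members was not tested. The study describes the surface replicates as biological, but the labels do not say whether they came from separate animals, and the p-values measure the spread between these libraries.

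The comparison with NK cells, the lymphocytes closest to T cells, divided the members. Here 2.61% of genes were called higher in T cells and 35.9% lower. These shares depended on single libraries. Leaving out 1 library gave 222 to 342 genes higher in place of 337, and 2004 (without T cell replicate 1) to 6965 (without NK cell replicate 1) lower in place of 4644. Of the 4 genes that would have entered without T cells, Lef1 and Tcf7 were called higher and Cd247 and Lck were not. Lef1 differed by 2.61 (SE 0.363, adjusted p = 2.09e-04) and Tcf7 by 1.32 (SE 0.334, adjusted p = 0.00924) on the log2 scale. For Cd247 the difference was 0.71 with a 95% interval from 0.06 to 1.36 (adjusted p = 0.0743), and for Lck 0.16 with an interval from -0.60 to 0.91 (adjusted p = 0.737), so that a difference of either sign remained possible for Lck. Without replicate 1 of the T cells, the lowest of their 3 libraries for Cd247, limma called Cd247 higher in T cells (1.05, adjusted p = 0.0211). It was also called higher, at the same 0.71, with a block for the replicate number in the fit. Cd3e (3.31), Cd8b1 (4.03), Cd8a (2.19), Cd3g (2.03) and Cd3d (1.69) were all called. They entered the test through the T cell libraries, so nothing is concluded from these calls. Markers of other cells moved with this comparison: 12 of 13 B cell markers, 6 of 11 monocyte markers, 5 of 11 neutrophil markers, 5 of 7 HSPC markers and 5 of 9 erythroid and platelet markers were lower in T cells than in NK cells on the TPM scale, beside the 35.9% of all genes. Their part in the values of the members was not tested.

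The scale mattered for the shared genes. As percent of the protein-coding TPM, 13.1% of genes were called higher in T cells than in NK cells and 18.3% lower. The median over all genes was -0.40 on log2(TPM + 1). It was -0.03 on log2(percent + 0.01) and -0.09 with a pseudocount of 0.001 percent. The sizes of these medians are not comparable, since the pseudocounts differ. On this scale Cd247 held 0.0406%, 0.0556% and 0.0397% in T cells against 0.00896%, 0.0151% and 0.0103% in NK cells, and Lck 0.0471%, 0.0618% and 0.0577% against 0.0170%, 0.0321% and 0.0222%. Neither gene overlapped between the cell types, and how many of all genes separate in this way is not given here. Limma called both higher, Cd247 by 1.36 (SE 0.109, adjusted p = 1.23e-06) and Lck by 0.97 (SE 0.130, adjusted p = 1.07e-04) on log2(percent + 0.01). Lef1 (3.08) and Tcf7 (2.10) were called as well, and their sizes are not comparable with those on the TPM scale, since the pseudocounts differ. Markers of other cells were also lower in T cells on this scale, beside the 18.3% of all genes. These were 8 of 13 B cell, 6 of 11 monocyte, 5 of 11 neutrophil, 6 of 7 HSPC and 4 of 9 erythroid and platelet markers. Of the monocyte markers 1 was higher. Without the filter on low values, which lets Cd4 in, Cd4 was called lower in T cells than in NK cells by 0.27 on log2(TPM + 1) (limma, adjusted p = 0.00713, against 10.1% of the 33967 genes called lower) and by 0.11 as percent of the protein-coding TPM (adjusted p = 4.79e-04, against 7.34%).

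**Figure D3:**
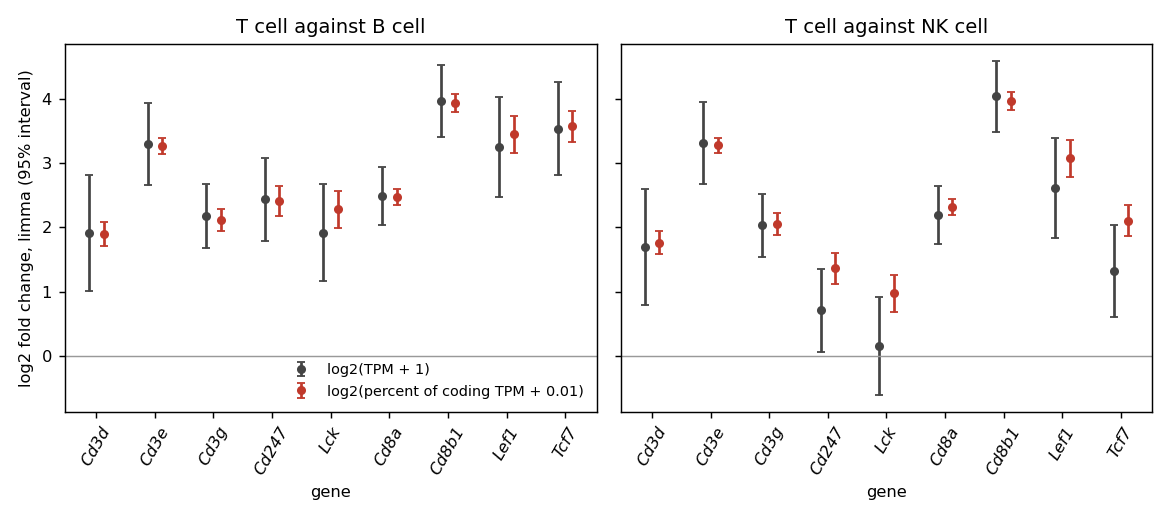
Log2 fold changes of limma with 95% intervals for T cells against B cells (left) and against NK cells (right), 3 libraries each, for log2(TPM + 1) in black and log2(percent of protein-coding TPM + 0.01) in red. Lck and Cd247 lie nearest 0 against NK cells, at 0.16 and 0.71 in black and 0.97 and 1.36 in red.

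NK cells were then set against B cells, a comparison added after the values were known. On log2(TPM + 1), 11.0% of all genes were called higher in NK cells and 7.14% lower. Leaving out 1 library gave 915 to 2082 genes higher in place of 1416, and 564 to 953 lower in place of 923. Tcf7 (2.22, SE 0.334), Lck (1.76, SE 0.352) and Cd247 (1.73, SE 0.301) were called higher in NK cells by limma, with adjusted p-values between 3.07e-04 and 0.00280, and Lef1 (0.64, adjusted p = 0.273) and Cd8a (0.30, adjusted p = 0.379) were not. Cd3d (0.22), Cd3g (0.15), Cd3e (-0.02) and Cd8b1 (-0.07) were not called. On the scale of protein-coding TPM, where 24.8% of all genes were called higher and 12.8% lower, Lef1 (0.37, adjusted p = 0.0423) and Cd8a (0.15, adjusted p = 0.0410) passed as well, but neither did without the filter on low values (adjusted p = 0.0869 and 0.0543, at the same fold changes). In the NK cell libraries Cd3e lay between 0 and 0.0813 TPM, Cd3g between 0 and 0.294 TPM and Cd3d between 0.180 and 0.370 TPM. On log2(TPM + 1), 12 of 13 B cell markers were lower in NK cells than in B cells, and 6 of 11 monocyte, 5 of 11 neutrophil, 5 of 7 HSPC and 4 of 9 erythroid and platelet markers were higher.

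Against the mean of the 4 other cell types, 4.98% of genes were called higher in T cells and 83.5% lower on log2(TPM + 1), and 21.7% higher and 31.5% lower as percent of the protein-coding TPM. All 9 members tested were called higher on both scales, 5 of which had to differ. The 4 others differed on log2(TPM + 1) by 3.20 (Lef1), 2.83 (Tcf7), 1.98 (Cd247) and 1.79 (Lck). This comparison includes monocytes, whose platform and cell type cannot be told apart: without them 4410 of 7718 genes tested were called in either direction, in place of 11447 of 12930. Of the 7718 genes, 746 were called higher, the 9 members among them. Without monocytes Lef1 also entered only through the T cell libraries, so nothing is concluded there from its call or those of the 5.

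Other genes of the same pathway were counted beside the shares of all genes called, which stand with each comparison above. Of the genes tested, 3 of T cell receptor signalling, 6 of the surface receptors and 2 of the transcription factors passed the filter only through the T cell libraries, like the 5 members named above. Leaving these out, 5 of 20, 5 of 12 and 0 of 17 were higher against NK cells, 8 of 20, 5 of 12 and 3 of 17 against B cells, and 8 of 20, 8 of 12 and 2 of 17 against the mean of the other 4 cell types, on log2(TPM + 1). As percent of the protein-coding TPM, again without them, these counts were 14, 9 and 8 against NK cells (13.1% of all genes), 14, 10 and 6 against B cells (21.2%) and 16, 12 and 13 against the mean of the other 4 (21.7%). The counts of each list below include the genes that entered through T cells only. The genes named from the lists were taken from all called genes and may be among these. Nothing is therefore concluded from a higher call of a named gene in T cells. Of 25 genes of T cell receptor signalling, 23 were tested against NK cells on log2(TPM + 1), and 6 were called higher (2.61% of all genes) and 2 lower (35.9%). As percent of the protein-coding TPM 17 of these were higher (13.1% of all genes) and 0 lower (18.3%). Themis (1.66, adjusted p = 7.73e-05), which acts in thymic selection, and Lat (1.65, adjusted p = 1.97e-04), the adaptor that gathers signalling proteins, had the largest differences from NK cells by limma. Against B cells 11 were higher (4.27% of all genes) and 6 lower (29.4%) on log2(TPM + 1), and 17 higher (21.2%) and 6 lower (15.7%) on the other scale, with Skap1 (2.89), an adaptor, higher and Csk (-3.13), the kinase that inhibits Lck, lower on the first. Skap1 (2.29) and Lat (2.07) were also higher against the mean of the other 4 cell types, where 11 of the 23 were higher (4.98% of all genes) and 5 lower (83.5%) on log2(TPM + 1), and 19 higher (21.7%) and 2 lower (31.5%) as percent of the protein-coding TPM. In NK cells against B cells 10 were higher (11.0% of all genes) and 4 lower (7.14%) on log2(TPM + 1), and 11 higher (24.8%) and 8 lower (12.8%) on the other scale, led on the first by Txk (2.27), a Tec family kinase, Skap1 (2.09) and Csk (-2.01).

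Of 20 other T cell surface receptors, 18 were tested. Against NK cells 10 were called higher (2.61% of all genes) and 1 lower (35.9%). As percent of the protein-coding TPM 15 were higher (13.1%) and 1 lower (18.3%). Against B cells 11 were called higher (4.27% of all genes) and 0 lower (29.4%), and 16 higher (21.2%) and 0 lower (15.7%) on the other scale. Cd5, an inhibitory receptor of T cells, was 2.00 higher than in NK cells on the log2 scale, S1pr1, which guides exit from lymphoid organs, was 1.63 higher, and Il2rb, the IL-2 receptor beta chain that NK cells use, was 2.46 lower. Thy1, a classical T cell marker, was 3.33 higher than in B cells, Cd27, a co-stimulatory receptor, 2.69 higher, and Il7r, the receptor for IL-7, 2.36 higher. Against the mean of the other 4 cell types 14 of the 18 were higher (4.98% of all genes) and 3 lower (83.5%) on log2(TPM + 1), and 18 higher (21.7%) and 0 lower (31.5%) on the other scale, led on the first by Thy1 (2.48), Cd5 (1.97) and Il7r (1.96). In NK cells against B cells 8 were higher (11.0% of all genes) and 2 lower (7.14%), led by Il2rb (4.40), S1pr1 (-1.91) and Cd27 (1.70). On the other scale 8 were higher (24.8%) and 3 lower (12.8%). Among 20 T lineage transcription factors other than Lef1 and Tcf7 the picture depended on the scale. Of the 19 tested against NK cells, 1 was called higher and 6 lower on log2(TPM + 1), where 2.61% and 35.9% of all genes were, so that the lower calls were near the share of all genes. As percent of the protein-coding TPM 10 were higher (13.1% of all genes) and 4 lower (18.3%). Runx1 (-2.02), Tbx21 (-1.82) and Eomes (-1.80), the last 2 of which direct NK and effector cell programs, had the largest differences, all lower in T cells. Against B cells 5 were higher (4.27% of all genes) and 9 lower (29.4%) on log2(TPM + 1), with Ikzf3 (-1.92) and Foxp1 (-1.69) lower and Bcl11b (1.81) higher, and 8 were higher (21.2% of all genes) and 6 lower (15.7%) on the other scale. In NK cells against B cells Myb (2.57), Eomes (2.48) and Id3 (-2.15) had the largest differences on log2(TPM + 1). There 5 were higher (11.0% of all genes) and 5 lower (7.14%), against 7 (24.8%) and 8 (12.8%) on the other scale. Against the mean of the other 4 cell types 4 of the 19 were higher (4.98% of all genes) and 5 lower (83.5%) on log2(TPM + 1), and 15 higher (21.7%) and 2 lower (31.5%) as percent of the protein-coding TPM. Zbtb7b, which directs cells to the CD4 fate, was 1.81 lower in T cells on log2(TPM + 1) in that comparison, and Runx1 2.16 lower. Bcl11b, which commits cells to the T lineage, was 1.73 higher than the mean of the other 4 cell types and 1.67 higher than in NK cells as percent of the protein-coding TPM. All 13 B cell markers were lower in T cells than in B cells (29.4% of all genes) on log2(TPM + 1). All 13 NK cell markers were lower in T cells than in NK cells (35.9%). These markers were chosen as genes of B or NK cells and could pass the filter through those libraries, which was not checked. Nothing is concluded from their calls.

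The genes outside the 10 whose surface profile was most like that of the members were sought over 15 libraries, by the root mean square difference of centred log2(TPM + 1) from the median profile of the members tested. Nsg2 came first (0.229), with 2.87, 6.57 and 6.55 TPM in T cells and at most 0.168 TPM elsewhere. The next were Trbv13-1 (0.267), Trbv13-3 (0.267), Trbv14 (0.283) and Traj36 (0.287), segments of the T cell receptor beta and alpha genes. Trbv13-1 gave 2.76, 7.97 and 6.45 TPM in T cells, where it shared the low replicate 1 of the members, and was listed at 0 in all NK cell, B cell and monocyte libraries. Segments of one family are near copies, and how reads were divided among them is uncertain. Of the members themselves Cd8a (0.134) and Cd3g (0.235) lay nearest to the median profile and Lck (0.820) farthest.

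Surface TPM came from several transcripts of each gene. In T cells the share of a gene's TPM on transcripts annotated as retaining an intron was 33.6% for Lef1 (± 5.23, SD, n = 3), 30.6% for Cd8a (± 4.19), 24.0% for Cd3e (± 2.68) and 22.9% for Lck (± 6.43). It was 1.88% for Cd3g (± 0.702). For Cd247 it was 0, 20.4% and 13.4% in replicates 1, 2 and 3, and for Cd3d 0, 8.01% and 14.5%, so that replicate 1 stood apart in both. Cd8b1 and Tcf7 have no such transcript in the table. The members with such transcripts thus ranged from nearly none to about the median of 24.8% found over 1903 genes with a retained-intron transcript, or somewhat above it. In T cells the spliced coding transcript Cd3e-201 led Cd3e with 4.12, 11.4 and 7.58 TPM, and Cd8b1 had 1 listed transcript.

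**Figure D4:**
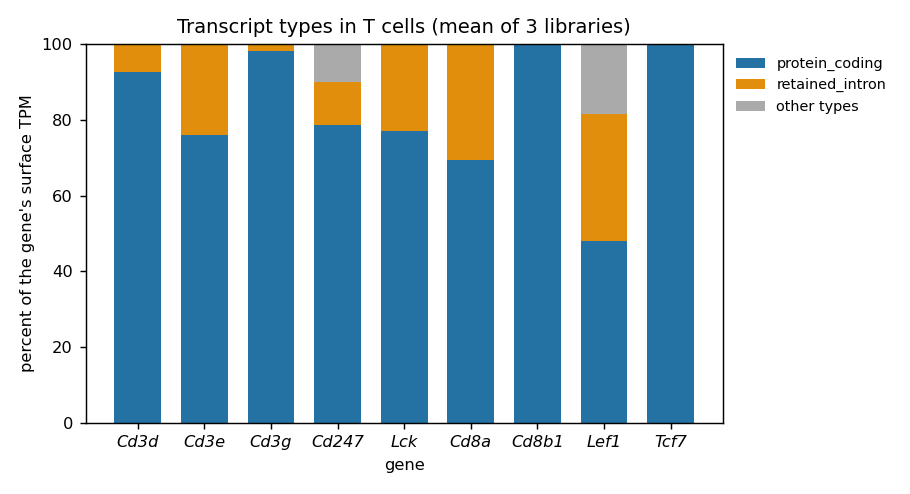
Share of each gene's surface TPM on protein-coding, retained-intron and other transcripts in T cells, as the mean of 3 libraries on a linear axis from 0 to 100 percent. Lef1 and Cd8a have the largest retained-intron shares (33.6% and 30.6%), and Cd8b1 and Tcf7 show none because no such transcript is listed.

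How a retained-intron transcript differs from the spliced one is shown for Cd3e, since the highest Cd3e value outside T cells lay on a retained-intron transcript. The spliced Cd3e-201 joins exon 4 to exon 5 over chr9:45002304-45005526 (minus strand), and Cd3e-203 begins inside the intron before exon 5, at chr9:45002304-45002387. Capitals mark the 50 bases that both share, and the lower-case bases are those of one alone. Sequences are from GRCm38 with GENCODE M21.
Cd3e-201: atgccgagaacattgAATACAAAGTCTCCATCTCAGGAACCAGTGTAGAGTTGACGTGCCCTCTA
Cd3e-203: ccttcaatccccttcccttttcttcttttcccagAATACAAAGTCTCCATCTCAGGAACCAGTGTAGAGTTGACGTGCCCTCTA
In monocyte replicate 3 the whole 1.38 TPM of Cd3e lay on Cd3e-203, and in monocyte replicate 1 the whole 0.318 TPM lay on Cd3e-201. In T cells Cd3e-203 reached 1.20 TPM in replicate 2 and 0.791 TPM in replicate 3.

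The Cd3d value of monocyte replicate 3, 4.07 TPM, came from a transcript that was listed at 0 in T cells. Cd3d-201, the transcript of the T cell libraries (1.61, 4.18 and 3.17 TPM), was listed at 0 in monocyte replicate 3, and Cd3d-202, which held the 4.07 TPM, was listed at 0 in all T cell libraries and in monocyte replicates 1 and 2. Cd3d-202 also held 0.346 of the 0.370 TPM of Cd3d in NK cell replicate 1 and 0.112 of the 0.258 TPM in NK cell replicate 2, and was at 0.0574 TPM in B cell replicate 2 and 0.0325 TPM in HSPC replicate 1. Cd3g was listed at 0 in all 3 monocyte libraries and Cd247 was at 0.203 TPM in replicate 3. Cd3d-202 starts with an exon of 93 bases at chr9:44985823-44985915 (plus strand, GRCm38, GENCODE M21) inside intron 3 of Cd3d-201. The exon is shown because 15 of its bases, in capitals and counted from base 66, are also found in the fixed part of the oligo that AMOUR anneals to surface RNA.
Cd3d-202 exon 1: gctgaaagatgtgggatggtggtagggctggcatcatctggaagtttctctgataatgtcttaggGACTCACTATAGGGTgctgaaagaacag
Of 141767 annotated transcripts, 15 share a run of at least 15 bases with the oligo, Cd3d-202 among them, and the other 14 were all below 1 TPM in monocyte replicate 3, with a highest value of 0.599 TPM. Runs of at least 12 bases are found in 766 transcripts. Of the 760 others listed in the monocyte table, 190 were above 1 TPM in that library, or 25.0%, against 18.9% of all 149488 transcripts listed. The transcripts were matched by identifier without its version. Whether reads of the oligo contributed to the Cd3d value was not tested.

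Total RNA of PBMCs, a mixture of blood cells, gave the same genes at different proportions. In TPM as deposited by the authors, Tcf7 (8.29 to 11.7), Cd3e (9.81 ± 1.65, SD, n = 9), Lef1 (9.47 ± 1.49) and Lck (7.80 ± 0.562) were the highest over the 9 libraries, with overlap between neighbours. Lck was separated from Cd247 (4.45 ± 0.702), which was followed by Cd4 (3.36 ± 0.383), Cd3g (3.17 ± 0.448), Cd3d (3.08 ± 0.567), Cd8b1 (2.04 ± 0.213) and Cd8a (1.61 ± 0.236), again overlapping. Cd4 exceeded Cd8a by 2.10 ± 0.133 times in PBMCs, while on the surface of the T cell libraries Cd4 was at or near 0 TPM, with ratios of 0.00584, 0.00344 and 0. Cd8b1 was 1.28 times Cd8a in PBMCs (from 1.02 to 1.51 in the 9 libraries) and 3.10 ± 0.0685 times on the surface. The ratios among CD3 chains were closer, with Cd3e at 3.27 ± 0.801 times Cd3d in PBMCs and 3.11 ± 0.296 times on the surface, and Cd247 at 0.460 ± 0.0735 and 0.509 ± 0.0651 times Cd3e. These are different assays and cells with separate normalization, and the ratios were not tested against each other.

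None of the 10 genes was called between the treatment groups ct, WT and Y of PBMCs. With edgeR's quasi-likelihood test and Benjamini-Hochberg adjustment over 11635 genes, 2.36% of genes were called between WT and ct, 0.705% between Y and ct and 1.25% between Y and WT, and 0 of the 10 members in each. DESeq2 called 0 as well. At an unadjusted p below 0.05, edgeR passed 1 member in WT against ct (Cd3e), 0 in Y against ct and 1 in Y against WT (Tcf7), and DESeq2 passed 1, 0 and 0. For the PBMC libraries, too, the labels do not say whether replicates came from separate animals.

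Cd3e came nearest to a difference. After TMM normalization it stood at 42.8, 47.3 and 52.8 CPM (counts scaled to library size) in ct, 39.6, 38.8 and 39.9 CPM in WT and 47.8, 42.2 and 43.4 CPM in Y. All WT libraries were below all ct and Y libraries. How many of all genes separate in this way is not given, here or for Tcf7 below. The log2 fold change of WT against ct was -0.27, with a 95% interval from -0.47 to -0.08 and an adjusted p of 0.180 in edgeR. Of the other CD3 chains, Cd3d differed by 0.12, Cd3g by 0.10 and Cd247 by -0.06 between WT and ct, each with an interval that includes 0. The interval of Cd247, from -0.29 to 0.17, also includes the value of Cd3e. The chains were not tested against each other.

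Tcf7 stood at 83.7, 87.4 and 78.3 CPM in ct, 71.9, 78.4 and 84.4 CPM in WT and 86.8, 93.2 and 88.7 CPM in Y. All Y libraries were above all WT libraries, and the groups ct and WT overlapped. The difference of Y from WT was 0.20, with an interval from 0.01 to 0.38 and an adjusted p of 0.387 in edgeR. Lef1, the related factor, differed by -0.09 in the same comparison, with an interval from -0.28 to 0.10, and its libraries ranged from 82.0 to 97.0 CPM.

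The remaining members varied little between groups. Lck ranged from 41.0 to 54.0 CPM over the 9 libraries, Cd247 from 19.9 to 25.5 CPM and Cd4 from 30.5 to 38.4 CPM. The CD8 chains were scarcer, Cd8a between 12.6 and 18.5 CPM and Cd8b1 between 9.51 and 11.6 CPM. Cd3d lay between 14.2 and 19.0 CPM and Cd3g between 9.89 and 13.4 CPM. Over all members and comparisons the log2 fold changes lay between -0.27 and 0.20, and the 95% intervals between -0.47 and 0.46. The counts behind the members are small, with Cd8b1, for example, at 49 to 97.9 expected counts per library. Library Y replicate 1, the shallowest with 4686426 counts, had the fewest expected counts of every member, and after normalization it remained the lowest library for Cd247 and Lef1.

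**Figure D5:**
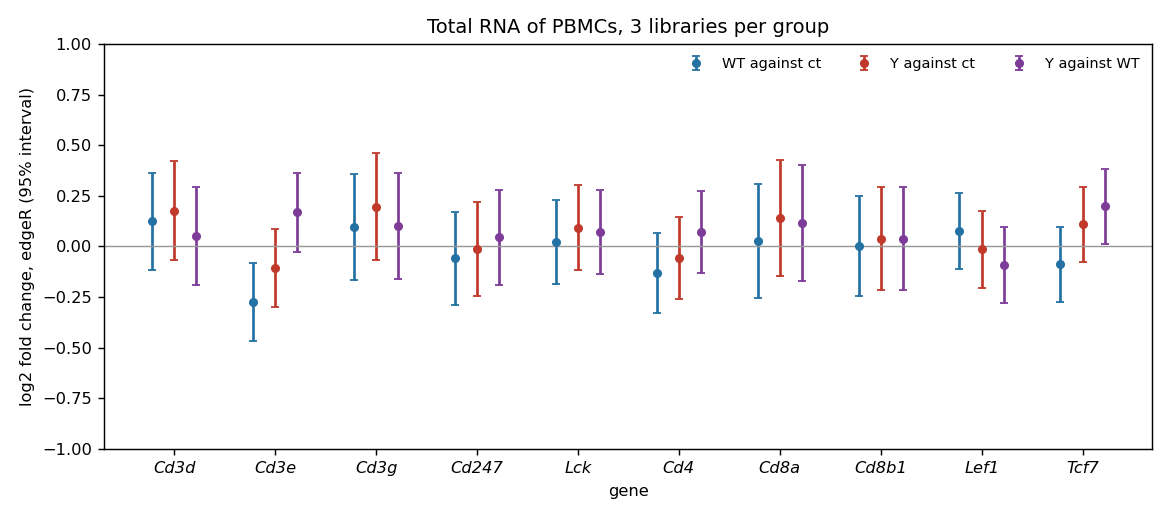
Log2 fold changes of edgeR with 95% intervals for the 10 genes in total RNA of PBMCs, 3 libraries per group, for WT against ct, Y against ct and Y against WT. All points lie between -0.27 and 0.20, and the intervals of Cd3e for WT against ct and of Tcf7 for Y against WT do not include 0.

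Few genes of the lists around the members were called in PBMCs. Of 25 genes of T cell receptor signalling and of 20 T lineage transcription factors, 0 were called in any of the 3 comparisons by edgeR. Of the 20 T cell surface receptors 2 were called in WT against ct, beside 2.36% of all genes, and 0 in the other comparisons. Both were lower in WT than in ct: Cd226, a co-stimulatory receptor (-0.46, adjusted p = 0.0243), and Il7r (-0.44, adjusted p = 0.0202). Markers of other blood cells did move between these groups. In WT against ct, beside 2.36% of all genes, all 10 erythroid and platelet markers were called lower and 3 of 12 NK cell markers higher. Of 10 neutrophil markers 2 were higher and 2 lower, of 11 monocyte markers 1 was higher and 1 lower, and of 2 HSPC markers 1 was lower. In Y against ct, beside 0.705%, 7 of 10 erythroid and platelet markers and 1 of 2 HSPC markers were lower and 7 of 10 neutrophil markers higher. In Y against WT, beside 1.25%, 7 of 10 neutrophil markers were higher, and 2 of 11 monocyte markers and 1 of 12 NK cell markers were lower. Whether they bear on the members was not tested.

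By the same measure of likeness over the 9 PBMC libraries, Tab2 (0.0317), Cct4 (0.0323), Arhgef6 (0.0362), Rps9 (0.0372) and Wdr26 (0.0386) had the profiles most like the median of the members, which varied by 0.14 over the libraries on the log2 scale. With so flat a profile these are genes that hardly varied. Reads of some members may be shared with overlapping genes, since strand use in the counting is not given: Pou2f1 overlaps Cd247 on the opposite strand with up to 351 counts in a library, and Gm42449 overlaps Lef1 on the same strand with up to 124.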

How the data were processed

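Surface RNA was measured in 15 libraries and PBMC total RNA in 9. For surface RNA the authors deposited TPM per transcript, estimated with Kallisto, and the transcript set is not given in the sources used here. TPM were summed by gene name and compared with limma 3.58.1 (R 4.3.3) on log2(TPM + 1), in 1 fit of all 15 libraries with a mean-variance trend, over genes above 1 TPM in at least 3 libraries. The study used DESeq2 on counts, which TPM are not. The fit was repeated on percent of protein-coding TPM with a pseudocount of 0.01. The deposited PBMC files hold expected counts and TPM of RSEM. Expected counts were rounded and tested with edgeR 4.0.16 (quasi-likelihood, TMM, default filter), with DESeq2 1.42.0 as an alternative. A call needed a Benjamini-Hochberg adjusted p below 0.05. Both fits were tested on simulated data. Positions are from GENCODE M21 (GRCm38), promoters from RefSeq (GRCm38.p6).

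The members and gene lists were chosen with earlier results of these data known. The rule for named genes took all 10 members, up to 3 called genes with the largest fold change per T cell list and comparison, and the 5 most alike genes per data type. Markers of other cell types were counted or summed. 1 gene that the rule selects is not reported here. Alternatives were other pseudocounts and filters, the scale of protein-coding TPM, other normalizations, a replicate block and leaving out each library. The comparison of NK cells with B cells and some alternatives on the protein-coding scale were added after seeing the data. No 2 replicates of a group held identical values.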

Additional observations from a re-analysis of the deposited data

How the results depend on the processing

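No log2 fold change of a member changed sign where it was called. Signs of values that were not called changed in 10, 8 and 8 of 110 values, each a member under an alternative, for WT against ct, Y against ct and Y against WT, in 2 of 122 for T cells against NK cells (both Lck) and in 2 of 131 for NK cells against B cells. The calls of single members were the same under the alternatives run for the 3 PBMC comparisons (110 of 110 each). They were also the same for T cells against the other 4 (203 of 203) and against B cells (122 of 122). The member counts for T cells, here and below, include Cd3d, Cd3e, Cd3g, Cd8a and Cd8b1 wherever these were tested. These 5 entered through the T cell libraries and had to differ, so nothing is concluded from their unchanged calls. Cd247, Lck, Lef1 and Tcf7 were called under every alternative that tested them. Their highest adjusted p (limma) was 5.30e-04 against the other 4 and 0.00604 against B cells, both for Lck. With the filter above 5 TPM, however, Lck, Lef1 and Tcf7 also needed the T cell libraries to enter. Cd247 and Lef1 exceeded 1 TPM in only 3 libraries outside T cells. Where 1 of these was left out, they too entered through T cells, as did Lef1 without monocytes. Nothing is concluded from those calls. In T cells against NK cells 114 of 122 calls of members were the same, and the other 8 values gained a call. These were Lck and Cd247 on the scales of protein-coding TPM. Cd247 also gained a call in limma with the replicate block (0.71, adjusted p = 0.0377) and without T cell replicate 1 (1.05, adjusted p = 0.0211). Lck, never called on log2(TPM + 1), ranged from -0.25 to 1.23 over all alternatives, and the adjusted p of Cd247 ranged from 1.23e-06 to 0.276 (limma). In NK cells against B cells 126 of 131 were the same, and 5 gained a call, with adjusted p-values over all alternatives from 0.00691 to 0.599 for Lef1 and from 1.78e-04 to 0.589 for Cd8a (limma).

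With a filter above 5 TPM, members called higher fell from 9 to 5 against the other 4, from 9 to 5 against B cells and from 7 to 4 against NK cells, since fewer were tested. Of the 7807 genes tested there, 467, 423 and 245 were called higher. All 5 members tested passed this filter only with the T cell libraries, so nothing is concluded from these member counts. Leaving out 1 library gave 6 to 9, 6 to 9 and 4 to 7 members. Against NK cells 4 were called without T cell replicate 2 or without replicate 3, where only 6 members passed the filter. Members called lower against NK cells rose from 0 to 1 (Cd4) without a filter, on both scales. NK cells against B cells gave 5 members in place of 3 as percent of the protein-coding TPM with either pseudocount, Lef1 and Cd8a being the added ones, which were not called on that scale without a filter.

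Counts over all genes moved more. T cells against the other 4 gave 11447 calls, 7246 with the filter above 5 TPM, 6879 as percent of the protein-coding TPM (6861 with a pseudocount of 0.001), 4410 without monocytes (of 7718 tested in place of 12930), and 7833 to 11556 leaving out 1 library. T cells against B cells gave 4354 and 2654 to 4395, the lowest without T cell replicate 1. T cells against NK cells gave 4981 and 2256 to 7307, with 2256 without T cell replicate 1, 2840 without NK cell replicate 2 and 2324 without NK cell replicate 3. NK cells against B cells gave 2339, 4867 as percent of the protein-coding TPM, 5298 on that scale without a filter, 5109 with a pseudocount of 0.001, and 1536 (without B cell replicate 2) to 2795. WT against ct gave 275 calls in PBMCs, 170 with DESeq2, 484 without a filter and 168 (without WT replicate 2) to 253. Y against ct gave 82, 257 without a filter and 34 (without Y replicate 3) to 167 (without ct replicate 3). Y against WT gave 146, 97 with DESeq2, 366 without a filter and 52 (without Y replicate 3) to 148. The cause of these shifts was not tested.

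The labels number the replicates but do not say that a number links libraries. Correlations between same-numbered libraries of different groups ranged from -0.27 to 0.47 on the surface and from -0.07 to 0.06 in PBMCs, and since they were not all above 0.1, the numbers were not taken to pair the samples. With the replicate block 8 members in place of 7 were called higher in T cells than in NK cells, 9 against B cells, 9 against the other 4, 3 in NK cells against B cells and 0 in PBMCs, and all genes called were 5317, 4561, 11471, 2497, and 234, 74 and 128.

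The depth of the surface libraries is unknown, levels below 1 TPM are uncertain, and 3 libraries per group and an unstated transcript set limit the surface values.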
